A study of Mus musculus with 6 samples.

Results

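The 50 genes described here encode the machinery that cuts and polyadenylates the 3-prime ends of RNA polymerase II transcripts, the Integrator complex, the RNA exosome, the CCR4-NOT deadenylase and the exoribonucleases XRN1 and XRN2. They are the rows of a mouse expression table of 12656 genes whose symbols begin with Cpsf, Cstf, Ints, Exosc or Cnot (for the last 3 with a number after the letters), together with Pcf11, Nudt21, Xrn1 and Xrn2. No measured value entered that choice. The cells were 4T1, an established mammary carcinoma line from mouse that the labels class as triple-negative. There were 2 groups of 3 libraries of polyadenylated RNA: a DMSO group, which received the solvent, and a group that received the DNA-damaging drug LP-184 for 48 h. Neither the drug dose nor the duration of DMSO exposure was stated in the sources used here. All libraries came from 1 cell line in culture. The labels do not say that the 3 libraries of a group were separate cultures, so each p-value reflects library-to-library spread only, and that spread may be technical.

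The libraries held 18864368 to 22471753 reads over the genes of the table. All 7 epithelial markers checked were present, with a summed level of 3458 to 3475 CPM (read counts scaled to the library size) in DMSO and 3406 to 3436 CPM in LP-184. Of the other marker lists, 1 of 6 fibroblast genes (Pdgfra, at 6.37 to 7.62 CPM in DMSO and 8.12 to 10.3 CPM in LP-184), 1 of 6 leukocyte genes (Lyz2, at 1.28 to 1.96 CPM in DMSO and 0 reads in LP-184) and 0 of 3 endothelial genes had a row. Their part in the results was not tested. In bulk RNA, a change of level per cell and a change in the make-up of the culture cannot be told apart.

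A protein-coding transcript ends when the cleavage and polyadenylation complex recognises a polyadenylation signal, cuts the RNA and hands it to poly(A) polymerase. XRN2 then degrades the RNA still being made by the polymerase, which promotes termination. Integrator is a second, separate cutting machine bound to RNA polymerase II. It makes the ends of small nuclear RNAs and ends transcription early at many genes, and it carries a phosphatase arm as well as a nuclease arm. The exosome degrades and trims RNA from the 3-prime end in nucleus and cytoplasm. In the cytoplasm CCR4-NOT shortens poly(A) tails, after which decapped mRNA is degraded from the 5-prime end by XRN1.

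Most of these genes moved by less than 2-fold with LP-184, and in both directions. Of the 50 genes, 30 were higher with LP-184, 14 were lower, and 6 missed the test (limma with Benjamini-Hochberg adjustment over all genes, adjusted p under 0.05). Among all 11931 genes tested 38.3% were higher, 40.0% were lower and 78.3% were called in either direction. Their median log2 fold change was 0.21, against -0.01 for all genes tested, and the median size of the change regardless of direction was 0.44 against 0.47. Ints1 was the single gene higher by 2-fold or more and Cnot6l the single gene lower by 2-fold or more, where 8.08% of all genes were higher and 12.6% lower by that much. The ranges of the 2 groups were separate for 43 of the 50, against 79.1% of all genes tested. All 50 passed the filter on low values, a log2 CPM of at least 0 in 3 or more libraries. The authors' deposited table gives 30 of the 50 as higher and 14 as lower at its adjusted p under 0.05 (37.6% and 38.6% of its 12656 genes), and each of the 50 had the same call there as here.

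**Figure D1:**
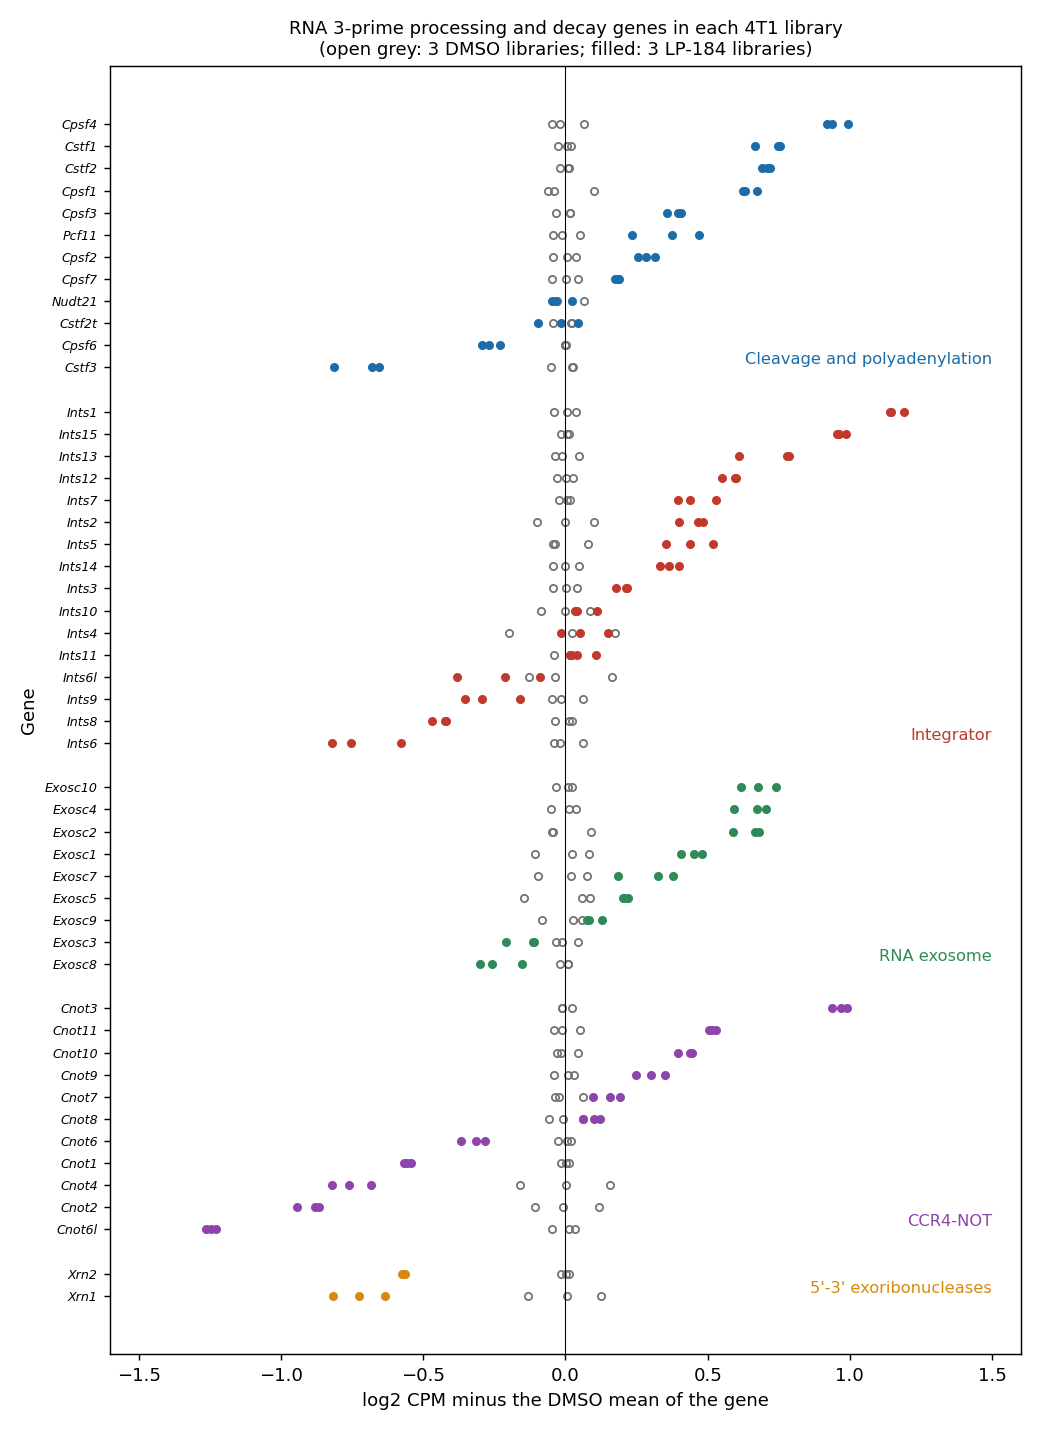
Level of each of the 50 genes in each library, as log2 CPM minus the mean of the 3 DMSO libraries for that gene (x axis), with genes in rows by complex; open grey circles are DMSO libraries and filled circles LP-184 libraries. Ints1 lies farthest to the right, at a mean of 1.16, and Cnot6l farthest to the left, at -1.25, and for 43 genes the open and filled circles do not overlap.

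Upstream sequence is shown for the 4 genes with the largest changes among those listed in the RefSeq promoter table of GRCm38.p6, so that the 1 fall and the 3 rises can be read side by side. RefSeq had an entry for 40 of the 50 genes. Each run is the 100 bases before the first RefSeq transcription start listed, in the direction of transcription, and capitals mark matches to the motifs searched. The windows are chr5:96161991-96162090 on the reverse strand for Cnot6l, which has 3 listed starts, chr5:139775679-139775778 on the reverse strand for Ints1, chr7:3645169-3645268 on the forward strand for Cnot3 and chr5:145167113-145167212 on the forward strand for Cpsf4, which has 2. The Cnot6l window lies inside the GENCODE span of the gene, which on the reverse strand begins at 96164171. It is therefore upstream of that RefSeq start only.
Cnot6l: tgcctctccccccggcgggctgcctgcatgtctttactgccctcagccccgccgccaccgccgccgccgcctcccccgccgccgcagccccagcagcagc
Ints1: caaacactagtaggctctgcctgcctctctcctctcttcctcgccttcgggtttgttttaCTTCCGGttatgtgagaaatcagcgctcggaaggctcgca
Cnot3: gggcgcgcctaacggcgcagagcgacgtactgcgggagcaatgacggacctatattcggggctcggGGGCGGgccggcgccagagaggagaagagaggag
Cpsf4: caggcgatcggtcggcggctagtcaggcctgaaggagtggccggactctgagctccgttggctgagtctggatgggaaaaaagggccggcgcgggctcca
The motifs were searched on both strands. The ETS motif CCGGAAG occurs once in the Ints1 window, on the reverse strand, and in 10.5% of the 8854 windows of tested genes with an entry. The GC box GGGCGG occurs once in the Cnot3 window and in 49.4% of all windows. Neither motif is in the Cnot6l or Cpsf4 window. Over the 40 genes of the set, 6 windows (15%) hold the ETS motif and 19 (47.5%) the GC box, and 14 (35%) hold CCAAT, against 23.8% of all windows. TATAAA and the AP-1 motif TGACTCA are in 0 of the 40 windows, against 2.31% and 1.24% of all windows, and the E-box CACGTG is in 2 (4.72% of all windows). The NRF1 motif is in 3 of the 40 (6.10% of all windows) and the CRE motif TGACGTCA in 1 (2.27%). These matches describe the letters of the windows and do not show binding.

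Among the genes of cleavage and polyadenylation, most that recognise or cut the RNA were higher and 2 were lower. Of 12 measured, 8 rose, 2 fell and 2 did not pass, with a median log2 fold change of 0.32. Of all genes tested 38.3% were higher and 40.0% lower. Cpsf4 encodes the zinc finger subunit that helps to read the polyadenylation signal (chromosome 5, 145167213 to 145182041 in GRCm38, forward strand). Its level was 53.0, 51.9 and 56.2 CPM in DMSO replicates 1 to 3 and 101.7, 107 and 103 CPM in LP-184 replicates 1 to 3. Every LP-184 library was above every DMSO library, and the log2 fold change was 0.95 ± 0.04 (SE, n = 3 each; limma adjusted p = 2.5e-20). Cpsf1, the large scaffold that holds the signal-reading subunits, rose by 0.64 ± 0.04 on the log2 scale. Cpsf3, the endonuclease that makes the cut, rose by 0.39 ± 0.04, and Cpsf2, its catalytically inactive partner, by 0.28 ± 0.03. Pcf11, which binds the tail of RNA polymerase II and acts in termination, rose by 0.36 ± 0.07.

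The CstF complex, which binds GU-rich sequence downstream of the cut, did not move as one. Cstf1 rose by 0.72 ± 0.04 on the log2 scale and Cstf2, the RNA-binding subunit, by 0.71 ± 0.03. Cstf3, the scaffold that bridges the other subunits (chromosome 2, 104590523 to 104665429, forward strand), was at 77.2, 81.3 and 81.5 CPM in DMSO and 50.7, 49.9 and 45.5 CPM in LP-184. The groups were far apart and in the opposite order to those of Cstf1 and Cstf2, and the log2 fold change of Cstf3 was -0.72 ± 0.05 (limma adjusted p = 1.5e-15). In the cleavage factor I complex, whose binding to UGUA motifs influences the choice of poly(A) site, Nudt21 stood at 196, 183 and 183 CPM in DMSO and 183, 190 and 181 CPM in LP-184. These ranges overlap, and the log2 fold change of Nudt21 was -0.02, with a 95% confidence interval from -0.08 to 0.04 (adjusted p = 0.58). Of its 2 alternative large partners, Cpsf6 fell by 0.26 ± 0.03 and Cpsf7 rose by 0.18 ± 0.04 on the log2 scale. The call of Cpsf7 ended when the trend of fold change on gene length was removed (0.00084, adjusted p = 0.99).

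Of the 16 Integrator genes, 9 rose, 3 fell and 4 did not pass, with a median log2 fold change of 0.28. Of all genes tested 38.3% were higher and 40.0% lower. Ints1, the largest subunit and part of the core scaffold (chromosome 5, 139751282 to 139775674, reverse strand), had 101, 104 and 106 CPM in DMSO and 237, 229 and 229 CPM in LP-184. That is a 2.23-fold rise, a log2 fold change of 1.16 ± 0.03 (SE, n = 3 each; limma adjusted p = 1.3e-26), with no overlap between groups. Ints15 was at 37.8, 38.5 and 38.3 CPM in DMSO and at 74.4, 74.2 and 75.8 CPM in LP-184, a log2 fold change of 0.97 ± 0.05.
INTS10, INTS13 and INTS14 form a separate module of the complex. Ints13 rose by 0.73 ± 0.05 on the log2 scale and Ints14 by 0.37 ± 0.05, while Ints10 had a log2 fold change of 0.06 with a 95% confidence interval from -0.05 to 0.18 (adjusted p = 0.33). Among the other core subunits Ints7, Ints2 and Ints5 rose by 0.46 ± 0.04, 0.45 ± 0.05 and 0.44 ± 0.05. Ints5 lost its call with the length trend removed (0.10, adjusted p = 0.062). Ints12, which carries a PHD finger, rose by 0.58 ± 0.05, and Ints3, shared with the single-stranded DNA binding complex SOSS, by 0.20 ± 0.04.

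Without adjustment for gene length, Ints4, Ints9 and Ints11 of the nuclease module were not called higher, and Ints6 and Ints8 of the phosphatase arm were lower. With the trend of fold change on gene length removed, Ints4 and Ints9 were called higher (0.42 and 0.46), Ints11 was called lower (-0.18) and Ints6 lost its call (-0.05). Ints11, the endonuclease, was at 74.6, 78.0 and 77.5 CPM in DMSO and 78.9, 77.5 and 82.7 CPM in LP-184. The groups overlap, and the log2 fold change was 0.05 with a 95% confidence interval from -0.03 to 0.14 (adjusted p = 0.24). With median centring Ints11 and Ints10 were called higher, at 0.14 and 0.15. The interval of Ints4, the scaffold of the nuclease arm, ran from -0.10 to 0.22. Ints9, the inactive partner of INTS11, fell by 0.27 ± 0.09 on the log2 scale (limma adjusted p = 0.0072), a call lost with median centring (-0.18) and with quantile normalization (-0.12). Ints6 and Ints8 encode subunits that bind the phosphatase PP2A. Ints6 (chromosome 14, 62676330 to 62761169, reverse strand) was at 34.0, 33.5 and 35.9 CPM in DMSO and 23.0, 19.4 and 20.4 CPM in LP-184. The groups do not overlap, and the log2 fold change was -0.72 ± 0.07 (limma adjusted p = 7.6e-11). Ints8 fell by 0.44 ± 0.05 on the log2 scale, with 58.9, 58.4 and 56.5 CPM in DMSO and 41.8, 43.2 and 43.2 CPM in LP-184. Ints6l, a paralog of Ints6, was barely expressed, at 2.52 to 3.10 CPM in DMSO and 2.10 to 2.59 CPM in LP-184, and its interval ran from -0.67 to 0.22. The reads of Ints11 are less certain than those of its neighbours, since 22.7% of its annotated exon bases are shared with Pusl1 on the opposite strand, and whether the counting used strand was not stated in the sources used here.

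Levels of different genes can be compared only per length, here as CPM per kb of annotated exon. That length counts once each base that is exonic in any isoform. It can exceed the length of the transcript in use, so the order of genes on this scale depends partly on the annotation. On that scale the Integrator genes spanned a wide range in DMSO. Ints11 was highest at 25.0 ± 0.60 (SD, n = 3) and Ints5 followed at 20.9 ± 1.0. Ints14 at 14.3 ± 0.46 and Ints3 at 13.8 ± 0.41 came next and overlap in their libraries, then Ints1 at 11.2 ± 0.30 and Ints7 at 9.77 ± 0.13. Ints9 at 2.74 ± 0.11, Ints6 at 2.05 ± 0.077 and Ints6l at 0.386 ± 0.042 were lowest. With LP-184 Ints1 reached 25.0 ± 0.49 CPM per kb, beside 26.0 ± 0.88 for Ints11. Ints5 had the highest mean then, at 28.3 ± 1.6, but its libraries overlap those of Ints11. Of the Ints5 exon bases 14.3% are shared with Gm49416 on the same strand.

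**Figure D2:**
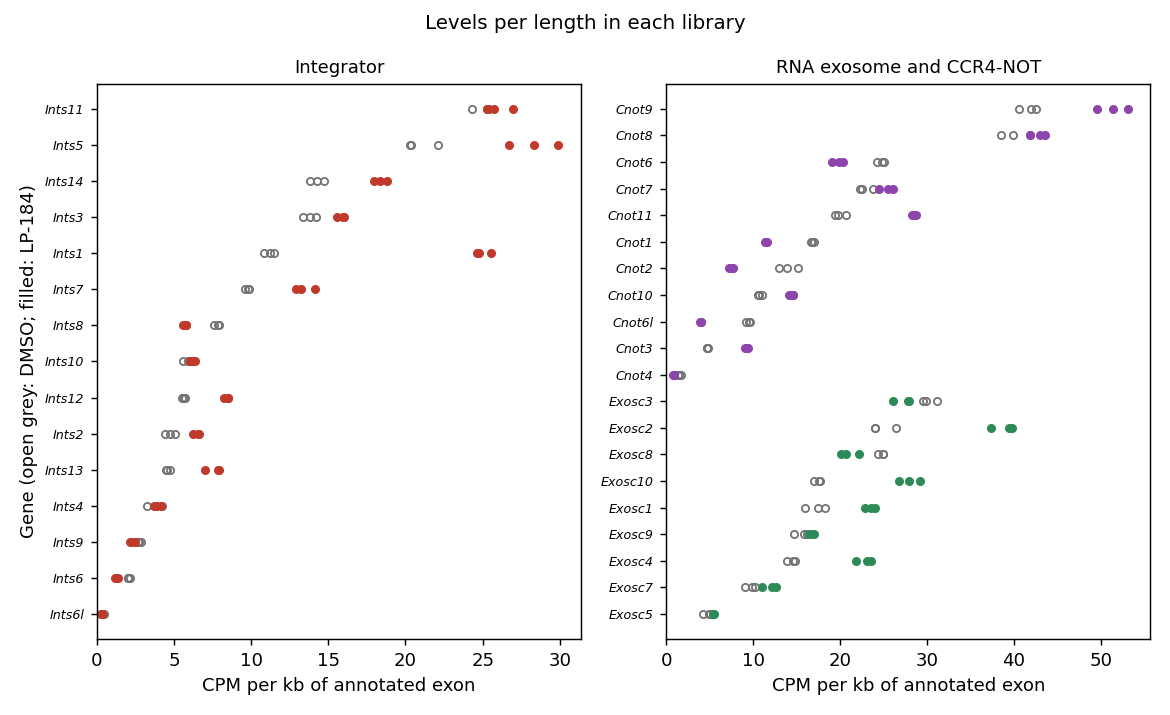
Level per length of the Integrator genes (left) and of the exosome and CCR4-NOT genes (right), as CPM per kb of annotated exon in each library; open grey circles are DMSO and filled circles LP-184, and Ints15, which has no annotated length under that symbol, is not drawn. Ints1 moves from 11.2 to 25.0 CPM per kb, next to Ints11, while Ints6, Ints9 and Ints6l stay below 3.

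Exosome genes were mostly higher, by modest amounts. Of the 9 with a row, 7 rose and 2 fell, and the median log2 fold change was 0.30. Among all genes tested 38.3% were higher and 40.0% lower. The median span of the 9 was 12.2 kb, and of all tested genes under 20 kb 53.1% were higher and 21.4% lower. With the length trend removed 5 were higher and 3 lower, where 35.3% and 38.9% of all genes were. Exosc10, the nuclear 3-prime exonuclease that joins the exosome core (chromosome 4), was at 61.2, 63.7 and 63.1 CPM in DMSO and 105, 96.3 and 100.2 CPM in LP-184. Its LP-184 libraries were all above its DMSO libraries, and the log2 fold change was 0.68 ± 0.04 (SE, n = 3 each; limma adjusted p = 1.6e-16). Of the cap subunits, which guide RNA into the channel, Exosc2 rose by 0.65 ± 0.04 on the log2 scale and Exosc1 by 0.45 ± 0.04, and Exosc3 fell by 0.14 ± 0.06. Of the ring subunits, Exosc4 rose by 0.66 ± 0.06, Exosc7 by 0.30 ± 0.05, Exosc5 by 0.21 ± 0.07 and Exosc9 by 0.10 ± 0.04. Exosc8, another ring subunit, was at 108, 106 and 108 CPM in DMSO and 87.1, 89.6 and 96.3 CPM in LP-184. Its groups do not overlap, with every LP-184 library lower, and its log2 fold change was -0.24 ± 0.04 (limma adjusted p = 1.7e-06).

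The 3 smallest exosome changes depended on single libraries. The call of Exosc5 was lost without DMSO replicate 1 (0.14). Exosc3 lost its call when DMSO replicate 3 (-0.12) or LP-184 replicate 1 (-0.11) was left out, and also with median centring (-0.06) and with quantile normalization (-0.08). Exosc9 lost its call when DMSO replicate 2 (0.05) or LP-184 replicate 1, 2 or 3 was left out (0.10, 0.08 and 0.11), and with quantile normalization (0.08). Some exosome genes share exon bases with a neighbour on the opposite strand: 19.8% of Exosc4 with Oplah, 12.4% of Exosc2 with Gm13427 and 10.8% of Exosc9 with the cyclin gene Ccna2. On the scale of CPM per kb, Exosc3 was the highest of the 9 in DMSO at 30.2 ± 0.85 (SD, n = 3) and Exosc5 the lowest at 4.71 ± 0.41. The annotated exon length was 1.32 kb for Exosc3 and 6.27 kb for Exosc5, so this order depends partly on the annotation. In CPM, the DMSO mean of Exosc5 was 29.5, and that of Exosc4 was 28.1. With LP-184 Exosc2 was highest, at 38.8 ± 1.3, and Exosc5 again lowest, at 5.44 ± 0.038.

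CCR4-NOT split more evenly, with 6 of 11 genes higher and 5 lower, and a median log2 fold change of 0.09. Of all genes tested 38.3% were higher and 40.0% lower. The NOT module, which docks on the scaffold CNOT1 and binds repressor proteins, went apart. Cnot3 (chromosome 7, forward strand) was at 34.2, 33.4 and 33.4 CPM in DMSO and 66.9, 66.1 and 64.5 CPM in LP-184. Its partner Cnot2 (chromosome 10, reverse strand) was at 61.6, 52.8 and 56.5 CPM in DMSO and 31.1, 29.5 and 30.8 CPM in LP-184. Neither pair of groups overlaps, and the order is opposite: the log2 fold change was 0.97 ± 0.05 for Cnot3 and -0.90 ± 0.06 for Cnot2 (SE, n = 3 each; limma adjusted p = 2e-18 and 8.4e-16). Per kb of exon, Cnot2 exceeded Cnot3 in DMSO (14.0 ± 1.1 and 4.72 ± 0.066 CPM per kb, SD, n = 3), and Cnot3 exceeded Cnot2 with LP-184 (9.23 ± 0.17 and 7.48 ± 0.21). The annotated exon length was 4.08 kb for Cnot2 and 7.13 kb for Cnot3. Cnot1 itself was at 291, 289 and 286 CPM in DMSO and 198, 196 and 195 CPM in LP-184, a fall with no overlap and a log2 fold change of -0.55 ± 0.03.

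The deadenylase subunits of CCR4-NOT also differed. Cnot6l encodes a poly(A) nuclease of the CCR4 class (chromosome 5, 96070333 to 96164171, reverse strand). It was at 94.2, 98.1 and 99.7 CPM in DMSO and 41.0, 41.4 and 40.5 CPM in LP-184, with all LP-184 libraries far below the DMSO libraries. The fall was 2.37-fold, a log2 fold change of -1.25 ± 0.05 (limma adjusted p = 3.1e-23). Its paralog Cnot6 fell by 0.32 ± 0.03 on the log2 scale. Nucleases of the CAF1 class moved little: Cnot7 rose by 0.15 ± 0.03, and Cnot8 rose by 0.09 ± 0.04 with overlapping groups (101.5 to 110.4 CPM in DMSO, 110.3 to 114.9 CPM in LP-184). The call of Cnot8 was lost when DMSO replicate 1 (0.07) or 3 (0.09) was left out, or LP-184 replicate 1 (0.09) or 2 (0.08), and with quantile normalization (0.07). Of the other subunits, Cnot11 and Cnot10, which form a module together, rose by 0.52 ± 0.04 and 0.43 ± 0.04, and Cnot9, which contacts the repressor proteins of the microRNA pathway, rose by 0.30 ± 0.03. The ubiquitin ligase gene Cnot4 fell by 0.75 ± 0.11. Its mean was 14.7 ± 1.62 CPM in DMSO and 8.63 ± 0.414 CPM with LP-184 (SD, n = 3 each).

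Both 5-prime exoribonucleases fell, where 40.0% of all genes tested and 79.5% of those of 50 kb or more were lower. Xrn2, the nuclear enzyme of transcription termination (chromosome 2, forward strand), was at 239, 234 and 237 CPM in DMSO and 159.2, 158.7 and 159.8 CPM in LP-184. Its libraries were tightly grouped and apart, and the log2 fold change was -0.57 ± 0.03 (SE, n = 3 each; limma adjusted p = 2.5e-19). Xrn1, the cytoplasmic enzyme, was at 51.6, 56.7 and 61.7 CPM in DMSO and 34.2, 32.0 and 36.4 CPM in LP-184, again without overlap, with a log2 fold change of -0.73 ± 0.06 (limma adjusted p = 6.7e-13). Per kb of exon, Xrn2 remained far above Xrn1 in both groups, at 59.4 ± 0.57 and 3.05 ± 0.27 CPM per kb in DMSO (SD, n = 3) and 40.0 ± 0.14 and 1.84 ± 0.12 with LP-184. The annotated exon length was 3.98 kb for Xrn2 and 18.6 kb for Xrn1, so the size of this gap depends partly on the annotation. In CPM the DMSO means were 236 and 56.7.

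Several members are related to one another, so the ratio within 7 such pairs was set out in each library, as log2 CPM of the first gene minus that of the second. It describes a change of balance and was not tested. Cnot6 over Cnot6l stood at 0.77, 0.74 and 0.73 in DMSO and 1.71, 1.61 and 1.69 in LP-184, a shift of 0.92 towards Cnot6 in which the groups do not overlap. Cstf2 over Cstf2t, its paralog without introns, shifted by 0.73, from 1.01 ± 0.05 to 1.74 ± 0.06 (SD, n = 3 each). The Cstf2t level itself overlapped between groups, with a log2 fold change of -0.02 and a 95% confidence interval from -0.12 to 0.07. Cpsf6 over Cpsf7 went from 0.63 ± 0.05 to 0.18 ± 0.02, a shift of -0.45 towards Cpsf7. Between the 2 nucleases, Cpsf3 over Ints11 went from -0.08 ± 0.06 to 0.25 ± 0.04, and between their inactive partners Cpsf2 over Ints9 went from 3.36 ± 0.10 to 3.92 ± 0.08. Ints6 over Ints6l went from 3.60 ± 0.10 to 3.11 ± 0.21, on few Ints6l reads. For Cnot7 over Cnot8 the libraries overlap (0.30 to 0.36 in DMSO and 0.33 to 0.43 in LP-184). These ratios are not adjusted for gene length. With the length trend removed, Cnot6 was at -0.26 and Cnot6l at -0.48, and Ints6 at -0.05 and Ints6l at -0.00036. Cpsf6 was then at -0.26 and Cpsf7 at 0.00084. Cpsf2 was at 0.23 and Ints9 at 0.46, so the order of these 2 turned. Cstf2 at 0.62 and Cstf2t at -0.33 lay further apart than unadjusted. So did Cpsf3 at 0.33 and Ints11 at -0.18, and Cnot7 at -0.015 and Cnot8 at -0.22. Reads that match both genes of a pair could be assigned to either, and how the authors' counting treated them was not stated in the sources used here.

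**Figure D3:**
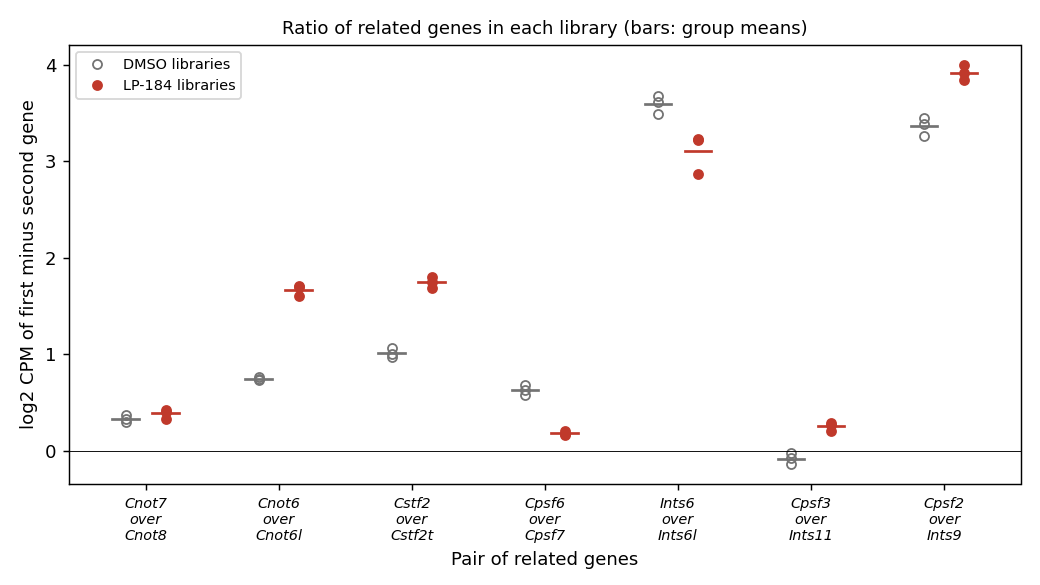
Ratio within 7 pairs of related genes in each library, as log2 CPM of the first gene minus log2 CPM of the second (y axis); open grey circles are DMSO libraries, filled circles LP-184 libraries and bars group means. The groups are apart for 6 pairs, by 0.92 for Cnot6 over Cnot6l, and overlap for Cnot7 over Cnot8. The ratios are not adjusted for gene length.

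The direction of change followed the length of the gene, as it does across the whole table. Of the 16 genes under 20 kb, 13 were higher, 1 was lower (Exosc8) and 2 did not pass, and among all 5433 tested genes of that length 53.1% were higher and 21.4% lower. Of the 20 genes from 20 to 50 kb, 15 were higher and 3 lower, where all 3105 genes of that length had 40.9% higher and 36.0% lower. Of the 13 genes of 50 kb or more, 1 was higher (Cnot10), 10 were lower and 2 missed the threshold (Ints4 and Ints6l), against 8.62% higher and 79.5% lower of all 2924 genes. The span is that of the annotated gene from first to last exon, and Ints15 has no span under that symbol. Across the 49 genes with a span, Spearman's rho between span and log2 fold change was -0.60 and Pearson's r on log10 span was -0.62. For all 11462 tested genes with a span these were -0.50 and -0.48. These values run across genes of the same 6 libraries, which are not independent replicates, and serve as a description.

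Set against the curve of fold change on span over all genes, some members stood off it and others lay on it. Ints1 (24.4 kb) remained at 1.02 once the curve was subtracted, Cpsf4 (14.8 kb) at 0.64 and Cnot3 (15.8 kb) at 0.66. Cnot10 (54.3 kb) was at 0.68 and Ints7 (48.1 kb) at 0.60, above their unadjusted values of 0.43 and 0.46. Cnot6l (93.8 kb) was at -0.48, and Exosc8 (6.72 kb) moved from -0.24 to -0.62. Cnot2 (96.4 kb) was at -0.10 and Ints6 (84.8 kb) at -0.05, and neither passed the test after subtraction (adjusted p = 0.11 and 0.55). Cstf3 (74.9 kb) was at -0.16 and Xrn2 (65.0 kb) at -0.14. Xrn1 (103 kb) turned to 0.14, Cnot1 (88.0 kb) to 0.15 and Ints9 (89.8 kb) to 0.46, so the falls of these 3 genes given above were smaller than those typical of genes of their span. Of the 6 genes that did not pass without subtraction, 4 passed after it: Nudt21, Ints11 and Cstf2t were then lower, at -0.22, -0.18 and -0.33, and Ints4 was higher, at 0.42 (limma adjusted p = 8.5e-05). Cpsf7, Ints5 and Exosc5 lost their calls, at 0.00084, 0.10 and -0.11, as did Cnot7 at -0.015 and Cnot4 at 0.21. Exosc9 and Cnot8 were lower, both at -0.22. Smaller rises remained for Cpsf1 (0.32), Cstf1 (0.40), Ints12 (0.34), Exosc4 (0.37), Exosc2 (0.32), Exosc1 (0.12), Exosc7 (0.13), Cnot11 (0.19) and Cnot9 (0.16), all genes under 25 kb. After subtraction 27 of the 49 members with a span were higher and 13 lower, where 35.3% and 38.9% of all genes with a span were. Ints15, which has no span, was not tested there. The part of gene length in these changes was not tested.

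**Figure D4:**
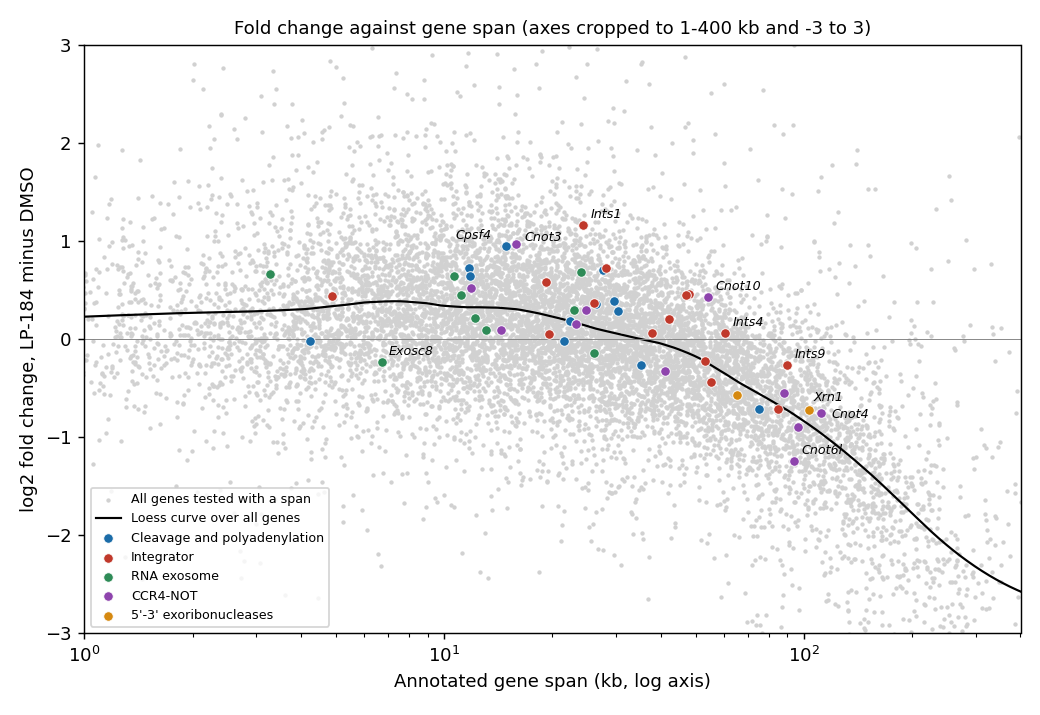
Log2 fold change, LP-184 minus DMSO (y axis), against the annotated span of the gene in kb (x axis, log scale) for the 49 genes with a span, coloured by complex, over all tested genes with a span in grey; the black line is the loess curve over all genes, and both axes are cropped. Of the 13 members of 50 kb or more, 10 were lower, and Ints1, Cnot3 and Cpsf4 lie above the curve and Cnot6l and Exosc8 below it.

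Partners of these complexes outside the 50 genes were read from 7 lists, 92 genes in all, of which 35 were higher and 41 lower (38.3% and 40.0% of all genes tested). The median of each list is given in the paragraphs on these partners, first as measured and then with the length trend removed. The second median covers only genes with an annotated span. Of 10 other cleavage and polyadenylation factors, 4 were higher and 6 lower (median log2 fold change -0.28, then -0.08). Sympk, the scaffold of the cutting module with Cpsf2 and Cpsf3, rose by 0.93 ± 0.04 on the log2 scale (SE), and Clp1, the partner of Pcf11, by 0.52 ± 0.05. Wdr33 and Fip1l1, which sit with Cpsf1 and Cpsf4 in the signal-reading module, fell by 0.53 ± 0.05 and 0.31 ± 0.03. With the length trend removed Wdr33 and Fip1l1 were called higher, at 0.34 and 0.09, as Cpsf1 and Cpsf4 were. The poly(A) polymerase gene Papola fell by 0.49 ± 0.03 and its paralog Papolg by 0.80 ± 0.08. Papola averaged 309.9 ± 2.04 CPM in DMSO and 219.9 ± 2.42 CPM with LP-184 (SD, n = 3 each). Removal of that trend left Clp1 at 0.17 and Papola at -0.24. Of 12 genes of transcription termination 4 were higher and 5 lower (median -0.08, then 0.26). Ppp1r10, a regulatory subunit of the phosphatase PP1 in termination, rose from 43.9 ± 1.92 CPM to 151 ± 4.85 CPM, a log2 fold change of 1.78 ± 0.04, and Scaf8, which prevents early polyadenylation, fell by 1.14 ± 0.06 (-0.48 with the trend removed).

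Of 11 Integrator partners 7 were higher and 2 lower (median 0.33, then 0.18). Beside both lists of this paragraph, 38.3% of all genes tested were higher and 40.0% lower. Srrt, the RNA-binding protein ARS2 that links the cap-binding complex to 3-prime processing, rose by 0.99 ± 0.03 on the log2 scale. Nabp2 and Inip, which join Ints3 in the SOSS complex, rose by 0.79 ± 0.05 and 0.52 ± 0.06. The PP2A genes split, with the scaffold Ppp2r1a higher by 0.33 ± 0.02 and the catalytic subunit Ppp2ca lower by 0.46 ± 0.02. The chaperone gene Hspa8 fell by 0.56 ± 0.02. Brat1, a partner of INTS11, had a log2 fold change of 0.04 with a 95% confidence interval from -0.19 to 0.27. With the length trend removed Nabp2 was at 0.45, Ppp2r1a at 0.11 and Hspa8 at -0.92, and Brat1 was called lower, at -0.28. Of 7 genes for the 3-prime ends of histone mRNAs 4 were higher and 1 lower (median 0.33, then 0.35): Slbp, the stem-loop binding protein, rose by 1.05 ± 0.03, Zfp473 by 1.15 ± 0.18, and the exonuclease gene Eri1 fell by 0.18 ± 0.03.

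Of 17 exosome catalytic subunits and cofactors, 4 were higher and 9 lower (median -0.21, then -0.12). Beside each list of this paragraph, 38.3% of all genes tested were higher and 40.0% lower. Skic2, Skic3 and Skic8 of this list have no span under those symbols. The median span of the other genes of the list was 35.6 kb, and that of the 9 exosome genes described above was 12.2 kb. Dis3, the catalytic subunit of the nuclear exosome, was at 114.8 to 129.2 CPM in DMSO and 110.2 to 120.1 CPM in LP-184, with a log2 fold change of -0.06 and a 95% confidence interval from -0.14 to 0.02. Its cytoplasmic counterpart Dis3l fell by 0.80 ± 0.08, and Dis3l2, an exosome-independent relative, fell by 4.51 ± 0.20, from 15.2 ± 1.34 CPM to 0.573 ± 0.0842 CPM (SD, n = 3 each). Removal of the length trend left Dis3l2, which spans 346 kb, at -2.05. Dis3l2 passed the filter on low values through the DMSO libraries alone, so its call is not used as support. Its reads were 311, 316 and 264 in DMSO and 12, 14 and 10 in LP-184. Dis3l2 remains among the 9 lower genes counted here. The nuclear helicase gene Mtrex had a log2 fold change of -0.03, with an interval from -0.11 to 0.06, and Zcchc8, its partner, rose by 0.28 ± 0.05. With the trend removed Mtrex was called higher (0.32), Dis3 was called lower (-0.20) and Zcchc8 lost its call (0.10). Of 17 other deadenylation genes 5 were higher and 11 lower (median -0.58, then -0.05). The largest rises were those of Tob1 and Tob2, adaptors that bring CNOT7 and CNOT8 to mRNAs, by 2.23 ± 0.04 and 2.00 ± 0.06, from 41.3 ± 2.13 CPM to 194 ± 1.51 CPM for Tob1. The related gene Btg2 rose by 0.99 ± 0.13. Parn, a poly(A) nuclease outside CCR4-NOT, fell by 1.81 ± 0.07 (-0.66 with the trend removed). Of 18 decapping genes 7 were higher and 7 lower, 38.9% each and near the shares of all genes tested (median -0.01, then -0.07). Edc4, the scaffold of the decapping complex that hands mRNA to Xrn1, rose by 1.28 ± 0.04, and Dcp1b had 34, 36 and 18 reads in DMSO and 20, 10 and 4 reads in LP-184. Dcp1b passed the filter through the DMSO libraries alone, so its call (-1.46 ± 0.39) carries no weight, though it remains among the 7 lower genes counted.

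**Figure D5:**
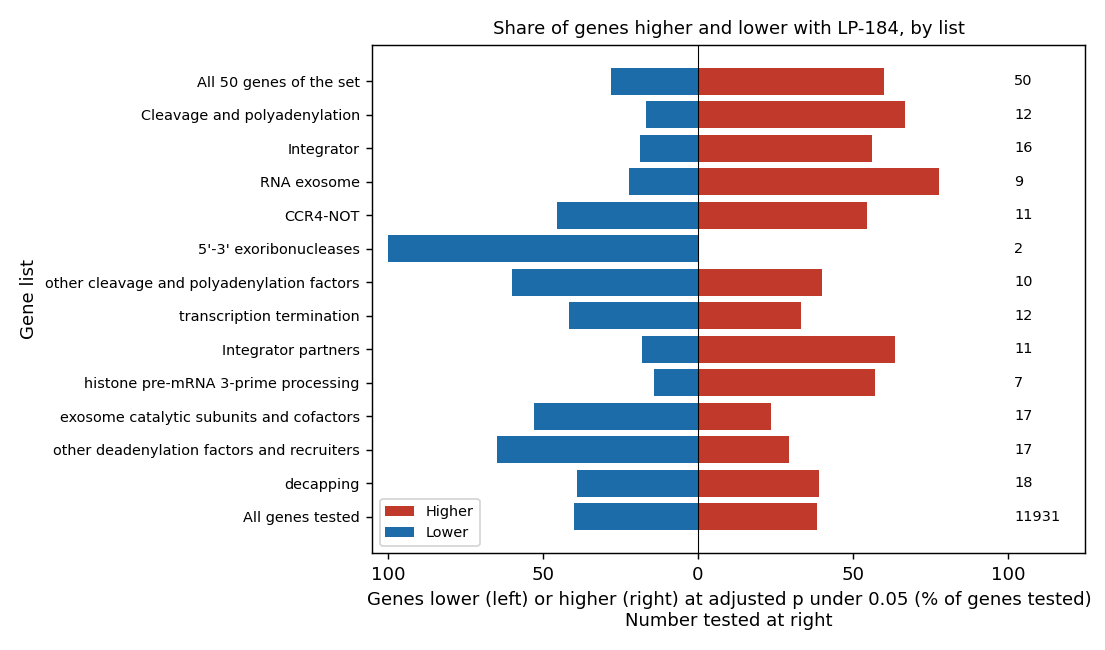
Share of genes higher (red, right) and lower (blue, left) with LP-184 at an adjusted p under 0.05, as a percentage of the genes tested in each list, with that number at the right; the first row is the 50 genes, the next 5 their complexes, then 7 lists of partners and all genes tested. Of the exosome genes 7 of 9 were higher, and of the exosome catalytic subunits and cofactors 9 of 17 were lower. Among all genes tested 38.3% were higher and 40.0% lower. Dis3l2 and Dcp1b, which passed the filter through the DMSO libraries alone, are included.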

How the data were processed

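The authors deposited log2 CPM for 12656 genes in 6 libraries, and a table of their own comparison that gives each gene a log2 fold change and a p-value, raw and adjusted, whose test the sources used here do not name. The submitters' processing notes list, without roles, edgeR, Subread 2.0, featureCounts, STAR 2.7 and fastp, with hg38 and mm10 as builds. The authors' filter, annotation and strand setting: not given in the sources used here. Control columns were matched to DMSO libraries by their number. Once each library's lowest value was subtracted on the linear scale, 100% of the deposited log2 values came out as whole reads, within 0.001 of a read. This gave the reads and the CPM printed here on the authors' library sizes.

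The 11931 genes at log2 CPM 0 or above in 3 or more libraries were tested in R 4.3.3 by limma 3.58.1 (mean-variance trend, two-sided, Benjamini-Hochberg adjustment over all genes, threshold 0.05). Fold changes on the log2 scale are given as the LP-184 mean minus the DMSO mean, and the authors' offset understates those of low genes. On simulated libraries for this comparison with 11703 genes tested, 97.0% of the genes set to 1.5-fold were recovered and 100% at 2-fold and at 4-fold, 2.94% of calls were false, and 0 genes were called where none changed. The simulation changed a small part of the genes, all above the filter on low values, with an assumed noise and no length trend. In the data 78.3% of genes were called, so these rates may not hold there.

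Spans, exon lengths and coordinates (1-based) come from GENCODE M21 (GRCm38, to which mm10 corresponds), by symbol, for 12134 genes (95.9%) and for 49 of the 50 members. Exon bases shared with another annotated gene were found for 26 members. The length curve is a loess fit (span 0.3). The members and lists were chosen with earlier results of these data known. Every member could be named, with all libraries for the largest rise and fall of each complex, and some others added after their values were seen. In the partner lists the called genes with the largest rise and fall were named, and direct partners of members. Cpsf4l and Exosc6 were not analysed here. Mean chi-square per gene between libraries of a group was 2.22 to 2.46, so no 2 were copies. Python 3.11.15 with pandas 2.3.3, numpy 2.4.6, scipy 1.17.1 and matplotlib 3.10.9 was used for summaries.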

Additional observations from a re-analysis of the deposited data

How the results depend on the processing

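Results were recomputed under 18 alternatives: each of the 6 libraries left out, removal of the length trend, a threshold of 0.01, voom with reads recovered from the table, the replicate number as a block, a robust fit, a fit without variance trend, a filter at log2 CPM 2, an unfiltered table, offsets of 0.1 and 1 CPM, and scaling by quantiles or by medians. Members higher numbered 27 to 32 and members lower 12 to 14 over them, against 30 and 14. Ints15 was not tested with the length trend removed. When 1 library was left out, they numbered 28 to 29 and 13 to 14, the partner genes 32 to 35 higher and 39 to 41 lower, and all genes 4415 to 4493 higher and 4607 to 4655 lower. Of the 44 members called, 31 kept call and direction in every alternative in which they were tested, and 39 in every one but removal of the length trend. Members higher by 2-fold or more numbered 4 with median centring and 2 with quantile normalization against 1, and members lower by 2-fold or more 0 with the length trend removed against 1.

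Removal of the length trend turned the sign of 13 named genes. The log2 fold changes became -0.18 for Ints11, 0.46 for Ints9, -0.11 for Exosc5, -0.22 for Exosc9, -0.015 for Cnot7, -0.22 for Cnot8, 0.15 for Cnot1, 0.21 for Cnot4, 0.14 for Xrn1, 0.34 for Wdr33, 0.089 for Fip1l1, 0.32 for Mtrex and -0.28 for Brat1. With it, genes of cleavage and polyadenylation that were lower numbered 4 against 2, those of CCR4-NOT 3 against 5, those of the exosome 3 against 2 (with 5 higher against 7), and of the exoribonucleases 1 was higher and 1 lower. The alternative subtracts the curve by construction, and the cause of the length relation was not tested.

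With the replicate number as a block, 29 members were higher and 14 lower, and Exosc9 lost its call (adjusted p = 0.061). Libraries of the same number did not deviate together (r of -0.01, -0.02 and -0.01 across genes), so no pairing by number was visible. Such values cannot show that these libraries were handled separately, and the labels do not state a pairing. With 3 libraries a group and a median standard error of 0.07 on the log2 scale, changes near 0.1 such as those of Exosc9 and Cnot8 are at the limit of what these libraries resolve.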
